A study of Homo sapiens with 7 samples.

Results

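The windows described here are human start-site windows that were moderately transcribed in wild-type cells. Their signal from 50 to 100 kb downstream was low relative to that from 3 to 50 kb. These windows numbered 1262 of the 9123 present in the tables of all 3 wild-type and all 3 CFAP20-knockout libraries, which is 13.8%. They were chosen on the mean of the 3 wild-type libraries: the mean signal over the first 3 kb was at least 1 and below 20, and the mean over 50 to 100 kb downstream (the distal stretch) was below 0.25 times the mean over 3 to 50 kb (the body). The other 1527 moderately active windows, whose distal mean reached that limit, are called far-reaching and serve as the comparison. The windows nearest to the limits had a first 3-kb mean of 1.0027 inside and 0.98652 outside, one of 19.923 inside and 20 outside, and a distal-to-body ratio of 0.2496 inside and 0.2509 outside.

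All cells were RPE1, an immortalised human line of retinal pigment epithelial origin, in the derivative RPE1 iCas9 p53/puro-dKO, so the p53/puro-dKO background is shared by every group. There were 3 libraries of CFAP20-KO cells, in which CFAP20 is knocked out, 1 library of the rescue, which is the knockout given back CFAP20 as a GFP fusion, and 3 libraries of WT cells. Nascent RNA was labelled with 2 mM bromouridine for 30 min, captured with an antibody and sequenced (BrU-seq), and the values are signal, that is coverage of the transcribed strand in bins of 200 bp, which the authors scaled per library. The study asked how transcription and replication meet in the genome and what CFAP20, a protein known from the cilium, does there. Whether a knockout was 1 clone is not given in the labels, and CFAP20 itself was not analysed here. Nothing in the labels says that replicates were separate cultures. The p-values therefore cover the spread among the 6 libraries compared, and that spread may be technical. A lower signal can come from fewer cells transcribing a gene or from less RNA per cell, and bulk libraries cannot tell these apart.

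Libraries differed in depth and run. The smallest step of the signal was 0.393 in CFAP20-KO replicate 1, the shallowest library, and 0.0733 in WT replicate 2, the deepest. Run numbers in the column names of the splice table put CFAP20-KO replicate 1 with WT replicate 1, the rescue with WT replicate 2, and CFAP20-KO replicates 2 and 3 with WT replicate 3. CFAP20-KO replicates 2 and 3 stood closest to each other, with a correlation over windows of 0.987, against 0.960 for the next closest pair, WT replicates 1 and 3. Results are therefore also given within runs.

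RNA polymerase II starts at a promoter, often pauses just downstream, and then elongates to the end of the gene, where cleavage of the transcript and termination follow. A short pulse of bromouridine marks RNA while it is made, introns included, so the signal follows the polymerase along the gene. Signal is highest near the start and falls along the body, and a window in which it ends early can hold a short gene or a polymerase that stops early. Signal beyond a gene's end can be read-through or a neighbouring gene on the same strand.

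The windows carry transcript identifiers but no gene names. A place in the genome was found for 169 of the 1262 windows (13.4%) by matching their WT profiles to windows around listed replication origins, for which the authors gave positions, and 166 of these lay within 1000 bp of an annotated start in GENCODE 44 (hg38). RefSeq promoters (GRCh38.p14) could be matched by symbol and strand, with a start within 200 bp of the window start, for 105 of the 166 genes. The sequences shown are the 250 bases before the RefSeq start of genes that recur below: GALNT12 (chr9:98807420-98807669, plus strand) and HACD1 (chr10:17617375-17617624, minus strand), whose signal was higher in every CFAP20-KO library than in any WT library, AGBL3 (chr7:134986258-134986507, plus strand) and SYPL1 (chr7:106112577-106112826, minus strand), whose signal was lower, and FOS (chr14:75278578-75278827, plus strand) and SPRY1 (chr4:123396545-123396794, plus strand), the members from a list of immediate early and growth feedback genes. Capitals mark motifs that were searched on both strands. The letters TATAAA were taken as a TATA box. A CCAAT box was the letters in its name. The letters GGGCGG were taken as a GC box, and overlapping ones run together. A cAMP response element was TGACGTCA.
GALNT12: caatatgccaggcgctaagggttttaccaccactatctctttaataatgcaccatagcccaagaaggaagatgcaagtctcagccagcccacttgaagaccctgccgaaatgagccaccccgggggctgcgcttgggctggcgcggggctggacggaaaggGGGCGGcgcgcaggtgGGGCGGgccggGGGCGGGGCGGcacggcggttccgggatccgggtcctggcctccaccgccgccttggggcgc
HACD1: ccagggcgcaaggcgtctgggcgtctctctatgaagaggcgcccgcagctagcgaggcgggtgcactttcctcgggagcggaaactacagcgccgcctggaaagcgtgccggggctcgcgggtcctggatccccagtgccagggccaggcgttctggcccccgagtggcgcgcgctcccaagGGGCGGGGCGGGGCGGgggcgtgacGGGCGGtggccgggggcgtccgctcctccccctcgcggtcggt
AGBL3: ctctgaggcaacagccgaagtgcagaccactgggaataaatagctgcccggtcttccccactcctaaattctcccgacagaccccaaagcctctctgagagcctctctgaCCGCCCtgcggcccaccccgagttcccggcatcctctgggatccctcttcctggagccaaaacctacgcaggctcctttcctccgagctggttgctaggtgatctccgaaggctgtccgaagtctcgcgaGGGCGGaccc
SYPL1: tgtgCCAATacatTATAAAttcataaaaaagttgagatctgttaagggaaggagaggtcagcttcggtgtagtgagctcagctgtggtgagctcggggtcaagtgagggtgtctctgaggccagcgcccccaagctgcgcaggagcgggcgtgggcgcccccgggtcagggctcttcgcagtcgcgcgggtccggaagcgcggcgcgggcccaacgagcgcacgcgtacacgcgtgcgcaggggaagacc
FOS: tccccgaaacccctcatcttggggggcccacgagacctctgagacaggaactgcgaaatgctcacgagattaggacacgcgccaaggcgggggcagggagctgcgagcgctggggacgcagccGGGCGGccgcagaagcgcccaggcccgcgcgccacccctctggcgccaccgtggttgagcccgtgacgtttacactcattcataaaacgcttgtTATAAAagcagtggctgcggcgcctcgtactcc
SPRY1: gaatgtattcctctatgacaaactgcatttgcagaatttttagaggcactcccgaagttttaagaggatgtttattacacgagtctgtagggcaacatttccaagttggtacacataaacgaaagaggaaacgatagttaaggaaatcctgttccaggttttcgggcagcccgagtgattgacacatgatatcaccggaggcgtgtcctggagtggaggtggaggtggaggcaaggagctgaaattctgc

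The GALNT12 and HACD1 promoters each held 4 GC boxes and no other searched motif. The AGBL3 promoter held 1 GC box on each strand, and the SYPL1 promoter a CCAAT box beside a TATA box, both far from the start. FOS had a GC box and, close to its start, a TATA box, and SPRY1 had none of these letters. Over the matched promoters, TATAAA was found in 9.52% of 105 contained genes, 3.32% of 211 far-reaching genes and 10.7% of all 35116 promoters in the table. The CCAAT box was found in 38.1% of contained, 32.2% of far-reaching and 32.01% of all promoters. The GC box was found in 65.7% of contained, 74.4% of far-reaching and 42.6% of all promoters, and the cAMP response element in 3.81%, 2.37% and 1.65% of these sets in the same order. The median number of CG dinucleotides in the 250 bases was 20 for contained genes, 22 for far-reaching genes and 11 for all promoters. A match describes letters only and does not show that a factor binds there.

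Within the limits of the rule the contained windows varied widely in WT cells. The first 3-kb mean had a median of 7.36 (range 1.003 to 19.9), the body mean a median of 1.76 and the distal mean a median of 0.0338. The distal stretch was at 0 in all 3 WT libraries for 33 windows and in all 6 CFAP20-KO and WT libraries for 12. The distal-to-body ratio, which the rule bounds, had a median of 0.0260 in contained and 0.796 in far-reaching windows, so most members lay far inside the limit of 0.25. The midpoint distance, by which 50% of the signal of the first 50 kb had accumulated, had a median of 10.7 kb (0.829 to 47.0 kb) in contained windows and 14.6 kb in far-reaching windows. It was below 3 kb in 92 contained windows, from 3 to 6 kb in 220, from 6 to 10 kb in 279, from 10 to 15 kb in 300 and longer in 371. The distance that held 90% of this signal had a median of 27.9 kb in contained and 40.4 kb in far-reaching windows. These values describe the choice and were not tested.

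**Figure D1:**
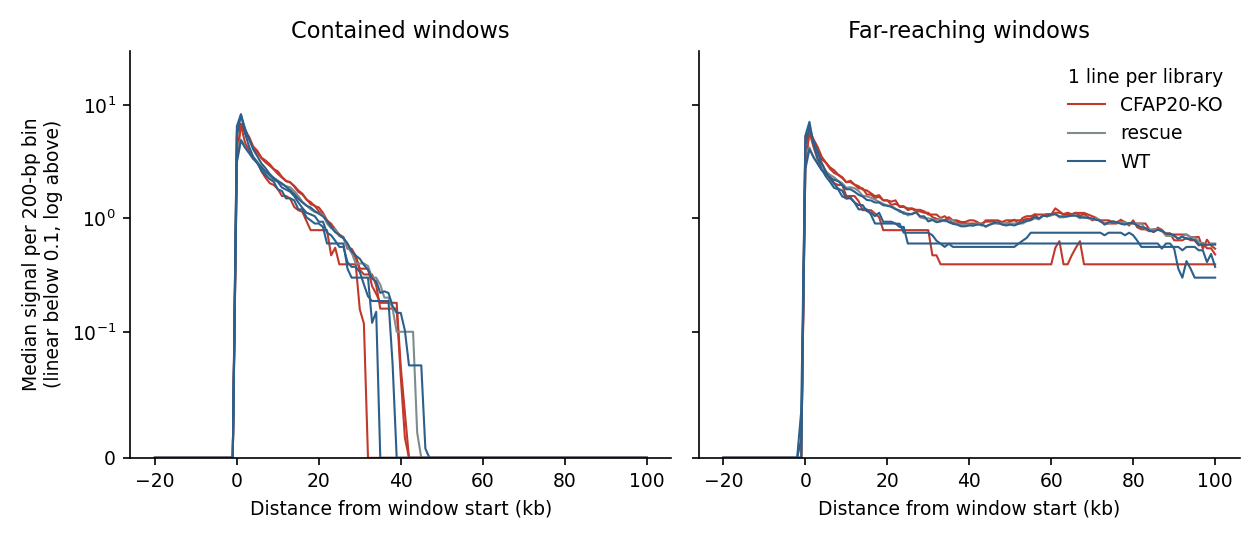
Median signal per 200-bp bin, in 1-kb steps (vertical axis linear below 0.1 and logarithmic above), against distance from the window start in kb, for contained windows (left) and far-reaching windows (right), with 1 line per library coloured by CFAP20-KO, rescue and WT. At 10 kb the contained medians were 1.81, 2.59 and 2.47 in CFAP20-KO, 2.11 in the rescue and 1.80, 2.14 and 2.09 in WT, and by 50 kb every line of the contained panel was at 0.

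The profile plot shows the median contained window falling from the start in all libraries. At 30 kb its signal was 0.157, 0.352 and 0.360 in CFAP20-KO, 0.400 in the rescue and 0.300, 0.440 and 0.336 in WT. The lines differed most by library: the shallowest, CFAP20-KO replicate 1, reached 0 nearest to the start. The smallest non-zero value differs between libraries, so the point where a line reaches 0 cannot be compared between them.

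The annotation of the 166 named windows gives what the rule did not use. Of these, 146 were protein-coding. The distance from the window start to the end of the matched transcript had a median of 24.15 kb (3.46 to 149 kb), and it was under 50 kb for 148 genes (89.2%). In the 300 named far-reaching windows the median was 62.2 kb, and 123 (41%) ended within 50 kb. Counting whole gene length instead gave medians of 28.2 kb for contained and 68.3 kb for far-reaching genes, with 78.3% and 36.3% under 50 kb. Contained windows mostly began genes that end before the distal stretch, and 18 began genes that reach into it. The longest was AGBL3, of a family of carboxypeptidases that trim tubulin tails (149 kb), whose signal had a midpoint at 4.29 kb in WT.

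Signal tracked the annotated end only in part. Over the 148 genes with an end within 50 kb, the 90% distance in WT divided by the distance to the end had a median of 1.13, with 0.935 and 1.76 at the quartiles. It was below 1 in 59 genes and above 2 in 31. The 90% distance is counted within the first 50 kb only, so for ends near 50 kb the ratio cannot be much above 1. These counts therefore depend in part on gene length. S100A2, a calcium-binding protein of the S100 family (chromosome 1, 153561108 to 153567890), has its transcript end 6.55 kb from the window start. Its midpoint distance was 33.3 kb in each CFAP20-KO library, 33.3 kb in the rescue and 33.2, 33.3 and 33.2 kb in WT, so most of the signal in this window lay beyond the gene. The same held for NDST1-AS1, a non-coding RNA antisense to a heparan sulfate gene (end at 10.4 kb, midpoint in WT 39.0 kb), and for TRIB3, a stress-induced pseudokinase (end at 16.9 kb, midpoint in WT 29.2 kb). The opposite case was MEIG1, a gene known from sperm formation in mice, with an end at 13.4 kb and a midpoint in WT at 1.02 kb, and TRIM69, a ubiquitin ligase, with an end at 38.9 kb and a midpoint in WT at 2.31 kb.

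**Figure D2:**
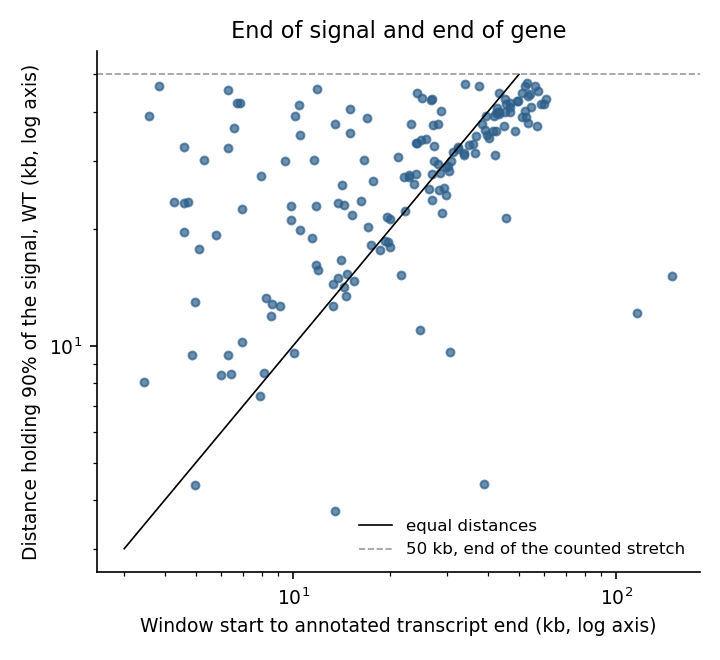
Distance holding 90% of the WT signal of the first 50 kb (vertical, kb, log axis) against the distance from the window start to the annotated transcript end (horizontal, kb, log axis), 1 point per named gene (166), with a line of equal distances and a dashed line at 50 kb. Many points follow the line, 31 of the 148 genes ending within 50 kb lie above 2 times their own distance, and AGBL3 lies far to the right.

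Containment itself was not used from the CFAP20-KO libraries, so it could be read in them. On the mean of the 3 CFAP20-KO libraries, 1225 of the 1262 windows (97.1%) were contained, and 1141 (90.4%) met the whole rule. In single libraries the whole rule held for 81.1%, 90.3% and 90.7% of windows in CFAP20-KO, for 86.9% in the rescue and for 86.0%, 87.6% and 88.8% in WT, which chose them together. Of the 37 windows that were not contained on the CFAP20-KO mean, and the 84 of 1527 far-reaching windows (5.50%) that were, none can be called changed from this count, since no test belongs to it. Single libraries placed 60, 40 and 42 members outside containment in CFAP20-KO, 75 in the rescue and 32, 46 and 55 in WT.

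The level and shape of the class did not differ between CFAP20-KO and WT beyond the spread of libraries. The median first 3-kb signal over the 1262 windows was 7.36, 6.20 and 6.22 in CFAP20-KO, 5.38 in the rescue and 8.02, 4.56 and 7.71 in WT. The groups overlapped, and WT replicate 2 was the lowest of all. The median of log2 signal averaged 2.73 ± 0.14 in CFAP20-KO and 2.72 ± 0.45 in WT (SD, n = 3 each; two-sided exact permutation p = 1). The median body signal was 1.57, 1.94 and 1.91 in CFAP20-KO, 1.78 in the rescue and 1.59, 1.59 and 1.82 in WT, a log2 difference of 0.11 (exact permutation p = 0.4). The smallest p that 3 against 3 libraries allow is 0.1, and over the 13 values of this kind the smallest p was 0.4 and every Benjamini-Hochberg adjusted p was 1.

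The start-to-body ratio did not differ between CFAP20-KO and WT beyond the spread between libraries, and the size of its difference depended on centring and on WT replicate 1. The median ratio of first 3 kb to body was 4.49, 3.17 and 3.17 in CFAP20-KO, 2.995 in the rescue and 5.23, 3.06 and 4.34 in WT. WT replicate 2 and the rescue, which share a run, were the lowest of the 7. The log2 ratio averaged 1.85 ± 0.30 in CFAP20-KO and 2.05 ± 0.38 in WT (SD, n = 3 each; exact permutation p = 0.7), and within runs the difference was -0.20 for CFAP20-KO replicate 1 against WT replicate 1 and -0.45 for CFAP20-KO replicates 2 and 3 against WT replicate 3. The difference of -0.20 over all libraries was -0.0035 after each library was centred on its median ratio over all tested windows. The median change per window was -0.19 in members and -0.18 over all tested windows, so members moved about as all windows did. Leaving out 1 library at a time, the difference of medians ranged from -0.41 without WT replicate 2 to -0.03 without WT replicate 1. The median midpoint distance was 9.70, 11.5 and 11.7 kb in CFAP20-KO, 12.6 kb in the rescue and 9.42, 12.1 and 10.2 kb in WT. It differed by 0.401 kb (exact permutation p = 0.9), and by 0.281 and 1.42 kb within the runs in the same order, and by -0.181 kb without WT replicate 1. The median 90% distance was 27.8, 27.8 and 28.0 kb in CFAP20-KO, 29.3 kb in the rescue and 27.4, 29.2 and 27.5 kb in WT (exact permutation p = 1).

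**Figure D3:**
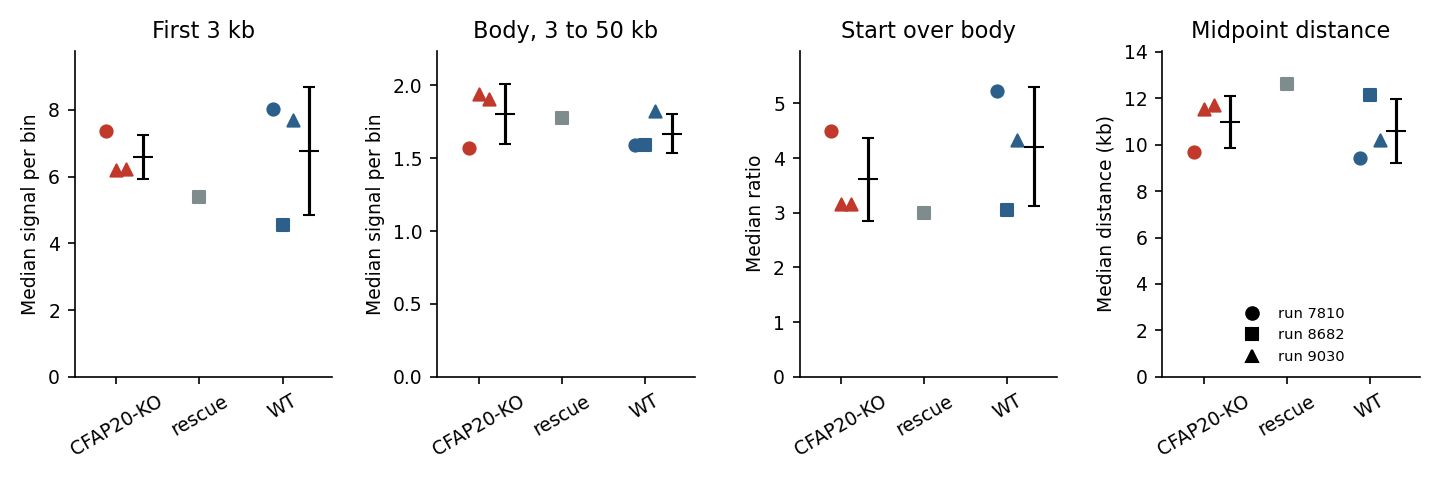
Median over the 1262 contained windows of first 3-kb signal, body signal, the ratio of first 3 kb to body and the midpoint distance in kb, 1 point per library (CFAP20-KO, rescue, WT), with marker shape for the run and bars for mean and SD of the groups of 3. The groups overlap in all 4 measures, and WT replicate 2 lies apart from WT replicates 1 and 3 in all but the body signal.

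WT values had chosen the windows, which could bias a difference from CFAP20-KO. With members chosen without the WT library of the run, the within-run difference of the log2 ratio was -0.22 and -0.45, and that of the first 3 kb was -0.13 and -0.30, against -0.12 and -0.31 with the members as given. The distal signal, with medians of 0.0274, 0.0290 and 0.0301 in CFAP20-KO, 0.0287 in the rescue and 0.0287, 0.0262 and 0.0335 in WT, did not differ beyond its spread (exact permutation p = 0.9).

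Contained and far-reaching windows were then set against each other within each library, and no difference between CFAP20-KO and WT passed this test. The median first 3-kb signal of contained minus far-reaching windows was 0.24, 0.22 and 0.23 on the log2 scale in CFAP20-KO, 0.27 in the rescue and 0.28, 0.21 and 0.37 in WT (exact permutation p = 0.4). The same difference for the start-to-body ratio was 0.37, 0.36 and 0.35 in CFAP20-KO, 0.41 in the rescue and 0.27, 0.42 and 0.28 in WT (exact permutation p = 0.4). Contained windows had the higher ratio in each of the 7 libraries, which is a description, since the rule used body signal. For the midpoint distance, the difference was -3.28, -4.97 and -5.35 kb in CFAP20-KO, -5.04 kb in the rescue and -3.515, -4.97 and -3.48 kb in WT (exact permutation p = 0.6). CFAP20-KO replicate 1 minus WT replicate 1 gave 0.233 kb for it. CFAP20-KO replicates 2 and 3 minus WT replicate 3 gave -1.68 kb, of opposite sign. For the first 3 kb and the ratio both runs gave the same sign.

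Window by window, few members passed the fit across all windows (limma on log2 signal, Benjamini-Hochberg adjusted p under 0.05). WT values of the first 3 kb, with a lower limit of 1, and of the body had chosen the members. Windows rising from a lower WT signal were thus left out, while windows lost in CFAP20-KO stayed in. Counts over the first 3 kb and the body are therefore a description. Over the first 3 kb, 0 of 1262 members were higher and 2 lower in CFAP20-KO, where 0.21% and 0.0839% of all 4768 tested windows were higher and lower. At an unadjusted p under 0.05 there were 78 (6.18%), against 8.43% of all tested windows. Over the body, 0 members were higher and 2 lower, with 104 at an unadjusted p under 0.05 (8.24%), against 0.453% higher, 0.283% lower and 12% of all 7070 tested windows. Fitting the replicate number or the run moved these counts: with the replicate number as a block 6 members passed over the first 3 kb (0 higher) and 45 over the body (23 higher), where 0.357% higher and 0.273% lower of all windows passed over the first 3 kb and 2.05% and 1.65% over the body. With the run as a covariate 222 passed over the first 3 kb (20 higher) and 197 over the body (112 higher), against 2.47% higher and 14% lower of all windows over the first 3 kb and 8.54% and 9.04% over the body. The run fit takes no part of the CFAP20-KO difference from WT replicate 2, which has no CFAP20-KO library in its run.

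The 2 members lower over the first 3 kb carry identifiers with no gene name. Their WT values were among those that chose the members, so the p-values below describe these windows and are no independent support. The window uc002qpg.4 was listed at 0 over the first 3 kb in each CFAP20-KO library and in the rescue, against 7.26, 3.10 and 6.02 in WT (limma adjusted p = 0.00273). Its body signal was not lost: it was 3.34, 2.51 and 2.32 in CFAP20-KO, 3.19 in the rescue and 5.43, 4.92 and 5.83 in WT. The start of this window was thus empty in both CFAP20-KO and rescue while signal further down remained, and its start-to-body ratio was also called (limma adjusted p = 0.00537). The window uc003ewj.4 had 0.0787, 0.128 and 0.0720 over the first 3 kb in CFAP20-KO, 0.347 in the rescue and 2.52, 2.55 and 2.48 in WT (limma adjusted p = 0.00811). Its body was lower as well, at 0.0184, 0.0654 and 0.0804 in CFAP20-KO, 0.160 in the rescue and 0.516, 1.115 and 0.627 in WT (limma adjusted p = 0.0202). In both windows the groups did not overlap, and the rescue stayed on the CFAP20-KO side.

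Shape measures gave no more. For the start-to-body ratio 0 members were higher and 2 lower in CFAP20-KO against 0.0212% and 0.0635% of 4728 windows tested with limma. At an unadjusted p under 0.05 there were 39 (3.09%), against 5.37% of all. Over all tested windows, same-numbered libraries deviated together in all 3 pairs for this measure alone (correlations over 0.1). Over the contained windows they also did so in the body (0.83, 0.604 and 0.121) and for the midpoint distance (0.576, 0.215 and 0.182). With the block on the ratio 0 members were higher and 1 lower, against 0% and 0.0635% of all. With the run as a covariate there were 0 in either direction, and 395 at an unadjusted p under 0.05 (31.3%), against 31.6% of all windows. For the midpoint distance 0 members were longer and 0 shorter, against 0.0932% and 0.202% of 6441 windows. At an unadjusted p under 0.05 there were 58 (4.60%), against 5.2% of all, and the replicate block also gave 0 members and 0% of all windows. Upstream signal, from 50 to 5 kb before the start, was high enough to test in 1024 of the 1262 members. Of these 4 were higher and 2 lower (84 at an unadjusted p under 0.05, or 8.20%), against 0.248% and 0.321% (and 11.2%) of 6847 windows. With the replicate block 11 were higher and 9 lower, against 1.11% and 1.55% of all, and with the run covariate 50 and 134, against 4.19% and 13.6%. The 2 largest rises were in uc010dys.4 and uc003dpu.4. Upstream signal of uc010dys.4 was 1.18, 0.744 and 0.607 in CFAP20-KO, 0.502 in the rescue and 0.00533, 0.00456 and 0.0407 in WT (limma adjusted p = 0.00422), and that of uc003dpu.4 was 0.226, 0.188 and 0.219 in CFAP20-KO, 0.117 in the rescue and 0.00267, 0 and 0.00415 in WT (limma adjusted p = 0.00113). In both, the rescue again lay nearer to CFAP20-KO than to WT, and the upstream stretch can belong to another gene on the same strand.

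Counts of windows whose groups did not overlap are given beside the shares of all tested windows, from which they differed in either direction by measure. WT values had chosen the members, while all tested windows include those with lower WT signal, so these differences are a description. Over the first 3 kb, every CFAP20-KO library exceeded every WT library in 53 members (4.20%) and was below in 101 (8%), against 6.23% and 7.89% of all tested windows. In far-reaching windows, chosen with the same limits on the first 3 kb, these shares were 5.04% and 7.07%. Over the body the counts were 171 (13.5%) higher and 80 (6.34%) lower, against 12.1% and 7.91%. For the start-to-body ratio they were 18 higher (1.43%) and 125 lower (9.90%), against 2.52% and 9.2%, and for the midpoint distance 106 longer (8.4%) and 28 shorter (2.22%), against 8.21% and 4.13%. In both the first 3 kb and the body, 32 members were higher (2.54%) and 40 lower (3.17%), against 3.17% and 2.64%.

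None of the 166 named genes passed the fit: the smallest limma adjusted p was 0.105 over the first 3 kb and 0.0616 over the body. The genes below are named because their groups did not overlap in both measures and their first 3-kb signal averaged at least 3 over the 6 CFAP20-KO and WT libraries. This held for 4 genes higher in CFAP20-KO, which are GALNT12, HACD1, SEPHS1 and DIDO1, and for 3 lower, which are AGBL3, SYPL1 and LSMEM1. Their order in the choice was by the size of the smaller of the 2 changes.

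GALNT12, an enzyme that starts mucin-type O-glycosylation (chromosome 9, 98807670 to 98850081, plus strand), had a first 3-kb signal of 4.96, 6.13 and 4.49 in CFAP20-KO, 1.89 in the rescue and 2.26, 0.533 and 4.09 in WT. Its body signal was 0.477, 0.799 and 0.676 in CFAP20-KO, 0.459 in the rescue and 0.208, 0.176 and 0.361 in WT (log2 change 1.41, SE 0.44, limma adjusted p = 0.231). HACD1, a dehydratase in the elongation of very long fatty acids (chromosome 10, 17589032 to 17617374, minus strand), had a first 3-kb signal of 19.9, 13.2 and 12.9 in CFAP20-KO, 3.77 in the rescue and 10.4, 3.87 and 10.2 in WT. Its body signal of 3.89, 3.43 and 3.08 in CFAP20-KO, 1.90 in the rescue and 0.897, 1.18 and 1.14 in WT gave the largest change of the named genes higher in CFAP20-KO (log2 change 1.70, SE 0.33, limma adjusted p = 0.0616). In both genes the rescue lay below every CFAP20-KO library, and it shares its run with the lowest WT library over the first 3 kb.

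SEPHS1, of the selenophosphate synthetase family (chromosome 10, 13317428 to 13348298, minus strand), had a body signal of 6.33, 6.09 and 5.97 in CFAP20-KO, 4.39 in the rescue and 3.44, 2.79 and 4.24 in WT (log2 change 0.83, SE 0.32, limma adjusted p = 0.323). DIDO1, a nuclear protein with a PHD finger (chromosome 20, 62877738 to 62937952, minus strand), had 18.5, 13.87 and 13.98 in CFAP20-KO, 15.6 in the rescue and 12.08, 10.41 and 11.95 in WT over the body (log2 change 0.42, SE 0.30, limma adjusted p = 0.677). Over the body, the DIDO1 rescue value lay among the CFAP20-KO libraries, and that of SEPHS1 just above the highest WT library.

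Among the lower genes, AGBL3 (chromosome 7, 134986508 to 135147963, plus strand) had a first 3-kb signal of 3.59, 8.27 and 9.70 in CFAP20-KO, 6.43 in the rescue and 14, 14.7 and 25.2 in WT (log2 change -1.38, SE 0.45, limma adjusted p = 0.408). SYPL1, a vesicle membrane protein related to synaptophysin (chromosome 7, 106090505 to 106112589, minus strand), had 2.36, 2.997 and 3.40 in CFAP20-KO, 3.22 in the rescue and 6.06, 7.55 and 8.49 in WT over the first 3 kb (log2 change -1.32, SE 0.31, limma adjusted p = 0.183). LSMEM1, a predicted single-pass membrane protein (chromosome 7, 112480853 to 112491062, plus strand), had 2.15, 2.77 and 2.51 in CFAP20-KO, 4.60 in the rescue and 3.74, 6.44 and 3.97 in WT (log2 change -0.88, SE 0.35, limma adjusted p = 0.527). Over the first 3 kb the rescue stayed on the CFAP20-KO side for AGBL3 and SYPL1 and lay within the WT range for LSMEM1. Body signal of AGBL3 was 0.218, 0.8 and 0.806 in CFAP20-KO, 0.740 in the rescue and 1.001, 2.20 and 2.04 in WT (log2 change -1.66, limma adjusted p = 0.282). That of SYPL1 was 0.981, 1.95 and 2.01 in CFAP20-KO, 1.45 in the rescue and 2.37, 3.71 and 4.05 in WT (log2 change -1.06, limma adjusted p = 0.338). LSMEM1 had 0.209, 0.230 and 0.224 in CFAP20-KO, 0.317 in the rescue and 0.335, 0.556 and 0.442 in WT (log2 change -0.97, limma adjusted p = 0.369). In the body the rescue lay below every WT library for all 3 genes, within the CFAP20-KO range for AGBL3 and SYPL1 and between the groups for LSMEM1.

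The 3 lower genes all lie on chromosome 7, and 2 of the 4 higher ones on chromosome 10. Without the limit of 3 on the first 3-kb signal, the groups did not overlap in both measures for 5 of the 166 named genes higher in CFAP20-KO, 3 of them on chromosome 10 (MCM10 is added), and for 7 lower, 5 of them on chromosome 7. Over all 4728 tested windows the shares were 3.17% higher and 2.64% lower. Of the 166 named genes, 12 lie on chromosome 10 and 13 on chromosome 7. The lower genes added, named after their values were seen, are IFRD1 and LINC00525 on chromosome 7, LINC02104 on chromosome 5 and TNFRSF11B on chromosome 8. IFRD1 and LSMEM1 abut on the plus strand: the LSMEM1 window starts at 112480991 and IFRD1 ends at 112481017. Signal in the LSMEM1 window can include read-through from IFRD1, which was not tested, so these 2 genes may not count separately. Of the 166 named genes, 8 lie on chromosome 7 beyond 100 Mb, and all 8 had a negative body change (median -0.93). Another 4, MEIG1, HACD1, MCM10 and SEPHS1, lie on chromosome 10 between 10 and 20 Mb, and all 4 had a positive one (median 1.40). Far-reaching windows in the same places had the same signs, 7 of 7 negative (median -0.59) and 2 of 2 positive (median 1.31), and the contained genes elsewhere had a median body change of 0.15. These limits were set after the values had been seen, and a part of DNA copy number in these values was not tested.

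**Figure D4:**
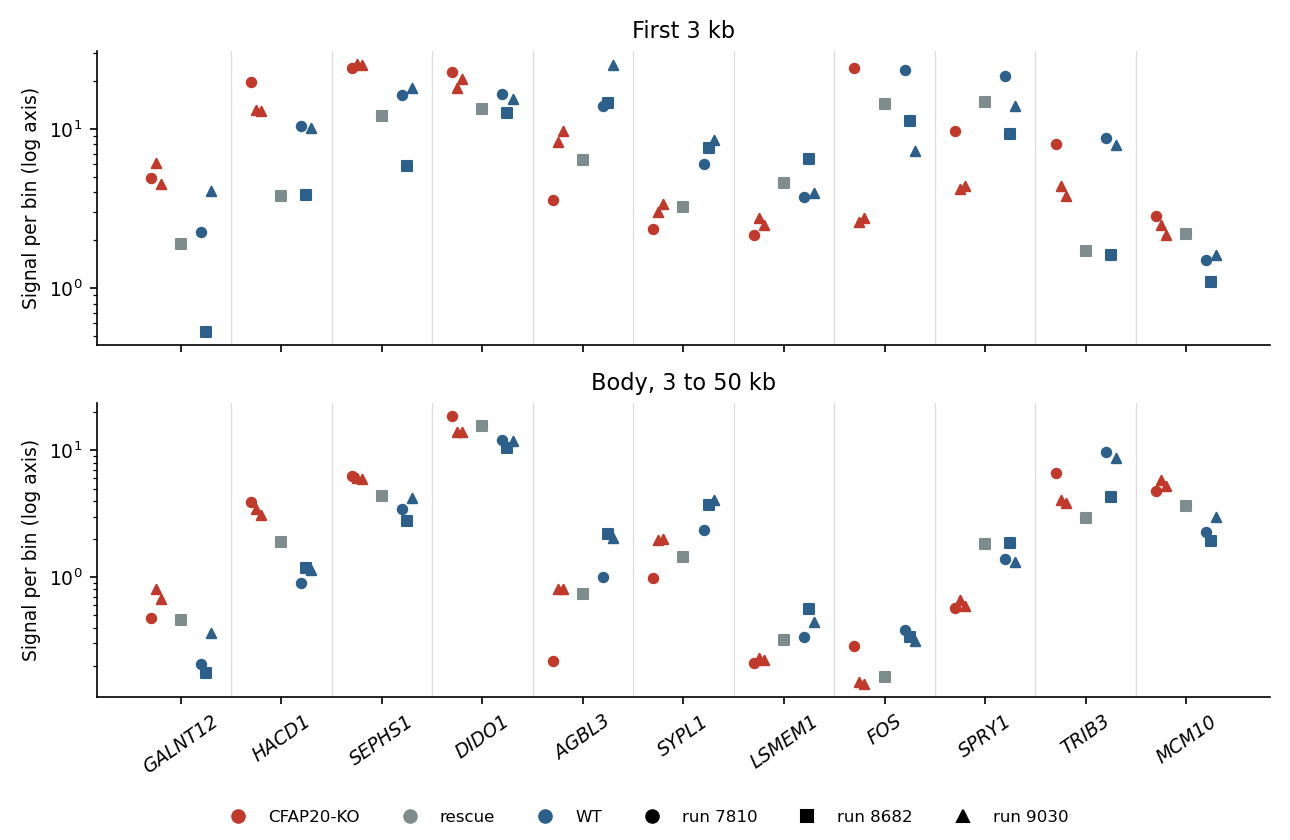
Signal per bin (log axis) over the first 3 kb (top) and the body (bottom) in each CFAP20-KO, rescue and WT library for the 4 genes with higher and the 3 genes with lower signal in both measures and for FOS, SPRY1, TRIB3 and MCM10, with marker shape for the run. HACD1 body signal lies at 3.08 to 3.89 in CFAP20-KO and at 0.897 to 1.18 in WT, and SYPL1 first 3-kb signal at 2.36 to 3.40 in CFAP20-KO and 6.06 to 8.49 in WT.

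Few genes of the pathway lists lay among the named members. Of 30 immediate early and growth feedback genes 2 did, FOS and SPRY1, of 17 stress response genes 1 (TRIB3) and of 19 replication genes 1 (MCM10). None passed the fit. The lists for cell cycle, matrix, cholesterol, splicing factors, cilium and Hedgehog, Mediator and elongation, and ribosomal proteins had 0 named members, as had the marker lists of retinal pigment epithelium, other epithelium, fibroblasts, blood and neurons, so the identity of the line could not be read from these windows.

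FOS, a subunit of the AP-1 transcription factor that is induced within minutes of growth stimulation (chromosome 14, 75278826 to 75282230, plus strand), had a first 3-kb signal of 24.3, 2.59 and 2.77 in CFAP20-KO, 14.4 in the rescue and 23.5, 11.2 and 7.23 in WT. CFAP20-KO replicate 1 and WT replicate 1, of the same run, were the highest, and the groups overlapped. Its body signal did not overlap between groups, at 0.288, 0.150 and 0.144 in CFAP20-KO and 0.384, 0.336 and 0.315 in WT, but the rescue was at 0.162 (log2 change -0.89, SE 0.43, limma adjusted p = 0.474). SPRY1, a feedback inhibitor of receptor tyrosine kinase signalling (chromosome 4, 123396795 to 123403760, plus strand), had a body signal of 0.567, 0.657 and 0.593 in CFAP20-KO, 1.83 in the rescue and 1.39, 1.86 and 1.33 in WT (log2 change -1.31, SE 0.35, limma adjusted p = 0.16). The groups did not overlap over the body, and the rescue lay within the WT range. Over the first 3 kb SPRY1 had 9.76, 4.18 and 4.37 in CFAP20-KO, 14.8 in the rescue and 21.6, 9.36 and 13.9 in WT, where the groups overlapped narrowly.

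MCM10, which helps the replicative helicase to start unwinding at origins (chromosome 10, 13161558 to 13211110, plus strand), had a body signal of 4.75, 5.79 and 5.22 in CFAP20-KO, 3.66 in the rescue and 2.26, 1.93 and 2.97 in WT (log2 change 1.16, SE 0.32, limma adjusted p = 0.177). TRIB3 (chromosome 20, 362835 to 397559, plus strand) had 6.67, 4.07 and 3.83 in CFAP20-KO, 2.92 in the rescue and 9.71, 4.32 and 8.69 in WT, with overlapping groups, and most of that signal lay beyond its own end.

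The highest starts in WT belonged to ARPP19, an inhibitor of the phosphatase PP2A at entry into mitosis, HDHD3, of a hydrolase family, AKIRIN2, which carries proteasomes into the nucleus, MPST, a sulfurtransferase, GCC1, a Golgi tethering protein, and PPP1R3C, which brings a phosphatase to glycogen. The first 3-kb signal of these genes averaged between 12.9 and 19.1 in CFAP20-KO for all but GCC1. GCC1 averaged 10.4 ± 6.40 in CFAP20-KO and 18.6 ± 9.30 in WT (SD, n = 3 each), and it lies in the chromosome 7 stretch above. HDHD3 averaged 12.9 ± 4.95 and 19.5 ± 11.1 in the same order. The CFAP20-KO mean was the lower in each of these genes, which were picked for high WT values. The steadiest in WT was ARPP19, with 11.6, 21.8 and 21.4 in CFAP20-KO, 11.3 in the rescue and 18.8, 18.9 and 21.9 in WT. MPST spread most, with 18.9, 17.8 and 15.8 in CFAP20-KO, 6.39 in the rescue and 29.3, 4.50 and 23.7 in WT. Its lowest libraries were the rescue and WT replicate 2, of 1 run.

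Among named genes with a WT first 3-kb mean of at least 3, the shortest midpoint distances in WT were those of MEIG1, CBX8, LINC02104, TRIM69, FOS and TMCC1-DT, from 1.02 to 2.55 kb, and in CFAP20-KO they averaged 1.10 kb for MEIG1, 2.52 kb for CBX8, 3.04 kb for LINC02104, 2.84 kb for TRIM69, 2.57 kb for FOS and 3.21 kb for TMCC1-DT. CBX8 encodes a chromobox protein of Polycomb complexes and TMCC1-DT a divergent non-coding transcript. The longest, under the same limit, were those of NDST1-AS1, ENSG00000261392, UPF3A, S100A2, TRIB3 and VGLL3, and all but TRIB3 moved by less than 1 kb between the group means. UPF3A, a factor of nonsense-mediated decay, had its midpoint at 34.2, 33.7 and 34.1 kb in CFAP20-KO, 35.3 kb in the rescue and 34.1, 35.6 and 34.2 kb in WT. VGLL3, a cofactor of TEAD transcription factors, had it at 23.9, 26.7 and 26.9 kb in CFAP20-KO, 24.0 kb in the rescue and 24.0, 27.3 and 26.2 kb in WT, and its WT libraries spread by more than 3 kb.

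By kind of gene, the 20 non-coding members had a median first 3-kb change of -0.32 and a median body change of -0.08 on the log2 scale, with 4 and 9 of 20 above 0. The 146 protein-coding members had -0.04 and 0.16, with 64 and 98 above 0. The 7 zinc finger genes by symbol (ZKSCAN4, ZNF777, ZNF418, ZNF256, ZNF746, ZSCAN20 and ZNF697), most of which encode DNA-binding repressors, had -0.26 and -0.55, with 2 and 3 of 7 above 0, and 2 of them lie in the chromosome 7 stretch above. By distance to the end, the median body change was 0.04 for 34 genes under 10 kb, 0.12 for 72 genes of 10 to 30 kb, 0.22 for 42 genes of 30 to 50 kb and 0.19 for the 18 longer ones. None of these groups held a gene that passed the fit, and the medians are descriptions without a test, beside a median of 0.11 over all windows tested.

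Past the annotated end, signal was lower in all libraries, and CFAP20-KO and WT did not differ beyond their spread. Over 103 named members with an end between 10 and 45 kb, the median log2 ratio of the 5 kb after the end to the 5 kb before it was -1.35, -1.72 and -1.74 in CFAP20-KO, -1.64 in the rescue and -1.57, -1.79 and -1.73 in WT. It averaged -1.61 ± 0.22 in CFAP20-KO and -1.69 ± 0.11 in WT (SD, n = 3 each; exact permutation p = 0.6), and the run pairs differed by 0.22 and -0.0027. The splice index, a fraction per intron deposited by the authors, was available for 42 introns of 27 named members. Its median was 0.484, 0.595 and 0.645 in CFAP20-KO, 0.693 in the rescue and 0.544, 0.695 and 0.632 in WT (exact permutation p = 0.6). Over all 6537 introns it was 0.519, 0.706 and 0.686 in CFAP20-KO, 0.729 in the rescue and 0.543, 0.693 and 0.650 in WT, so both first replicates were the lowest of their groups in either set.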

How the data were processed

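BrU-seq was analysed in 7 RPE1 libraries. The submitters' processing notes name hg38 and, in no stated order, HOMER 4.8.2, R 4.0.5, STAR 2.7.7a, Trim Galore 0.6.5, SAMtools 1.11 and FastQC 0.11.9, and libraries were paired 151-bp reads per the labels' protocols. The values deposited are a signal, coverage in bins of 200 bp, which the authors scaled (to a reference the sources used here do not state). Within a library each value was a whole multiple of 1 step, and these summed to 30183210 steps in CFAP20-KO replicate 1 and 116896659 in WT replicate 2. Steps are not reads, so no count model and no counting interval was used. The deposited splice table holds an index, a fraction from 0 to 1, with unknown depth.

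Region means were compared as log2(signal + pseudocount), with the 10th percentile of values above 0 as pseudocount (0.0498 for the first 3 kb, 0.00383 for the body, 0.00284 upstream), which understates changes of low windows. Windows with a mean of at least the pseudocount were tested with limma 3.58.1 in R 4.3.3 (trend, robust), 3 CFAP20-KO against 3 WT libraries, with Benjamini-Hochberg adjustment over all windows, and the script was tested on simulated data. For library medians, exact permutation tests (two-sided) were used. The rescue was in no fit. Whether replicate numbers pair libraries was checked by the correlation of their deviations from the group mean, with a limit of 0.1. Same-numbered libraries correlated at 0.593, 0.329 and 0.057 for the first 3 kb, so they were not taken as pairs, and at 0.38, 0.145 and 0.135 for the start-to-body ratio, which met the limit over all tested windows.

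Windows were located by sliding their WT profile (3 kb before to 30 kb after the start) along origin windows of known position. A match needed a correlation of at least 0.95 in CFAP20-KO and 0.97 in WT, a lead of 0.03 over the next place and a GENCODE 44 start within 1000 bp. Matches ranged upwards from 0.971 in WT, and 142 of 169 starts lay within 100 bp of an annotated start, against 0 after a 3-kb shift. The limits, and the use of the transcript end rather than gene length, were set after such results had been seen, so this agreement is no independent check. Located windows lie near listed origins and are not a random sample.

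The members and lists were chosen with earlier results of these data known. Named genes were those past the adjusted threshold (none was located), those with groups apart in first 3 kb and body (up to 12 a direction), the 6 highest in WT, the 6 shortest and 6 longest midpoints and up to 3 per list. The past-end ratio, the splice index, gene kinds, chromosome stretches and promoter motifs were added after the data had been seen. Alternatives covered the pseudocount, filter, centring, block, run, choice of members and each left-out library.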

Additional observations from a re-analysis of the deposited data

How the results depend on the processing

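Of 123 alternatives other than leaving out a library, 92 were taken as unchanged, 24 counts or shares moved and 7 near-zero medians changed sign. For medians, unchanged means the same sign only. For counts and shares it allows a small shift, such as from 2 to 3 calls over the first 3 kb with the pseudocount divided by 2. The 92 include the replicate block on the 13 library medians, which could not change them. Centring libraries gave -0.0395 for the median first 3-kb difference and 0.0780 for the distal one, and narrower rules gave -0.0138 (first 3 kb of 2 to 10) and 0.0463 (distal under 0.1 of the body). The contained minus far-reaching upstream difference became -0.0337 and -0.0234 with members chosen on CFAP20-KO or on all 6 libraries, and -0.0036 after averaging CFAP20-KO replicates 2 and 3. The share meeting the rule in CFAP20-KO was 81.4% under the 2 to 10 rule, against 90.4%. The cause was not tested.

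Members called over the first 3 kb, in the body, upstream and in the ratio numbered 2, 2, 6 and 2. With centred libraries they were 5, 4, 10 and 1 (0.629%, 1.39%, 1.46% and 0.0212% of all windows tested passed), with the replicate block 6, 45, 20 and 1, with the run covariate 222, 197, 184 and 0, with run and centring together (added after seeing the data) 199, 224, 205 and 0 (15.1%, 18.8%, 20.7% and 0% of all), and with CFAP20-KO replicates 2 and 3 averaged 1, 1, 3 and 1 (0.0419%, 0.368%, 0.234% and 0.0423% of all). With the run covariate, centring moved the higher share over the first 3 kb: 20 higher and 202 lower became 60 higher and 139 lower. Dividing the pseudocount by 2 or testing without a filter gave 1 call in the body (0.736% and 0.553% of all), and 4 times the pseudocount gave 1 for the ratio (0.106% of all). The block left the midpoint distance at 0 calls. For the differences of medians it returns the same value by arithmetic, so it is no check on them.

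Leaving out 1 library each, calls among members ranged from 1 to 3 over the first 3 kb and 0 to 4 in the body. They ranged from 2 to 6 upstream, 0 to 2 for the ratio and 0 to 3 for the midpoint distance. Over all tested windows, calls over the first 3 kb ranged from 1 to 6 higher and 1 to 3 lower of 4768. In the body they were 18 to 38 higher and 2 to 26 lower of 7070. Upstream they were 9 to 23 higher and 4 to 44 lower of 6847. For the ratio they were 0 to 1 higher and 0 to 3 lower of 4728. For the midpoint distance they were 7 to 18 longer and 11 to 26 shorter of 6441. The log2 differences of medians ranged from -0.26 to 0.15 over the first 3 kb, 0.05 to 0.21 in the body, -0.0951 to 0.0666 distally, -0.53 to 0.0224 upstream and -0.41 to -0.03 for the ratio. Midpoint distance ranged from -0.181 to 1.17 kb and 90% distance from -0.484 to 0.399 kb. Contained minus far-reaching differences ranged from -0.10 to -0.02 for the first 3 kb, 0.0075 to 0.08 for the ratio, -1.17 to -0.138 kb for the midpoint and -0.0369 to 0.0698 upstream. The past-end ratio ranged from -0.0379 to 0.16 and the splice index from -0.0885 to -0.0033. Depth limits the distal stretch, where the contained median of the mean signal per bin was below the smallest step in each library. In CFAP20-KO replicate 1 this median was 0.0274 and the step 0.393. With 3 libraries a group no permutation p can reach 0.05.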
